A study of Homo sapiens with 6 samples.

Results

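PROSER1 (proline- and serine-rich protein 1) and 9 genes whose products are its partners in chromatin regulation were followed in a human neuroblastoma cell line, SH-SY5Y. The partners are the 3 TET dioxygenase genes TET1, TET2 and TET3, the O-GlcNAc transferase gene OGT, and KDM6A, KMT2C, KMT2D, PAXIP1 and NCOA6, which encode subunits of the KMT2C/D histone methyltransferase complexes. Members were taken by gene symbol. All 10 were among the 19610 rows of the count table, and all 10 were among the 12196 genes with enough counts to be tested. PROSER1 was chosen because it was lower with SGC707 in this same comparison, so its values are a description and carry no test here. The 9 partners were listed for their role beside it, with earlier results of these data known.

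RNA sequencing was done on 3 libraries (A, B and C) from wild-type SH-SY5Y cells treated with SGC707, which inhibits PRMT3, a protein arginine methyltransferase, and on 3 (A, B and C) from the same line treated with the solvent DMSO. Neither the dose nor the time of treatment is given in the sources used here. Nothing in them states that each library had a culture of its own, so the spread behind every p-value is that among the 6 libraries and could be technical. The study's question was about MIR448, IGF1R and the phosphorylation of tau, and the genes described here lie outside it. Where 3 values are given for a group, they are those of libraries A, B and C in that order.

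TET enzymes oxidise methylated cytosine in DNA, the first step of active demethylation. OGT attaches the sugar N-acetylglucosamine to serine and threonine residues of nuclear and cytosolic proteins, TET proteins among them. The KMT2C/D complexes place monomethylation on lysine 4 of histone H3 at enhancers, and their subunit KDM6A (also called UTX) removes methyl groups from lysine 27 of the same histone. PROSER1 is known to bind TET2 and OGT, to promote the glycosylation of TET2, and to act at enhancers and CpG islands that depend on KDM6A.

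PROSER1 lies on the minus strand of chromosome 13 (39009866 to 39038076, GRCh38) and starts 230 bp from NHLRC3, which runs the opposite way on the plus strand (39038306 to 39050109). Most of the bases between both genes are shown, because they lie between the starts of a gene that was lower with SGC707 and of a neighbour that was not. The bases nearest PROSER1, below position 39038090, are not included. The run is taken from the RefSeq promoter table (GRCh38.p14), covers chr13:39038090-39038305, is given 5′ to 3′ on the minus strand in the direction of PROSER1, and has its CG dinucleotides in capitals.
Bases from the NHLRC3 side to the PROSER1 side: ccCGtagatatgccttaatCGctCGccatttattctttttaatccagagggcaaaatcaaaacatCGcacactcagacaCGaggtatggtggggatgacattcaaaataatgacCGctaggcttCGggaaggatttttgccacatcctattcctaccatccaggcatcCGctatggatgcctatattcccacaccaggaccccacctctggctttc
It is 216 bases long, holds 8 CG dinucleotides and has a GC content of 47.7%. The full 300-base PROSER1 window of that table holds 13 CG dinucleotides, the median over all 35116 windows is 14, and 51.7% of windows hold at least as many as PROSER1. These counts describe the letters only, since neither DNA methylation nor binding was measured.

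Total counts were 11658728 to 15437602 per library. Mitochondrially encoded genes took 46.7% to 60.7% of them with DMSO and 24.3% to 37.7% with SGC707, so the depth on nuclear genes was 6066305 to 6327895 with DMSO and 7559322 to 8999358 with SGC707. The SGC707 libraries differed in their trend with transcript GC content, with C opposite to A and B. Across nuclear genes, a Spearman correlation was taken between GC content and the library's deviation from each gene's mean. It was -0.758 in SGC707 C, 0.524 and 0.341 in SGC707 A and B, and -0.123 to 0.229 in the DMSO libraries. Of 11 adrenergic neuroblastoma markers, 10 reached 1 CPM (counts scaled to a common library size) in at least 1 library, with a summed level of 4906 to 5518 CPM with DMSO and 5668 to 6707 CPM with SGC707, while TH was at 0 in all 6. Summed levels were 39.5 to 60.5 and 62.8 to 99.7 CPM for 6 fibroblast markers, 1.14 to 1.81 and 0.907 to 2.27 CPM for 5 Schwann and glial markers (SOX10 and GFAP at 0), 1.04 to 1.52 and 1.03 to 2.31 CPM for 4 immune markers (PTPRC and CD3E at 0), and up to 0 and 0.0825 CPM for 3 endothelial markers (CDH5 and VWF at 0). These sums were scaled by library totals alone, under which the median log2 fold change over all tested genes was 0.69. The fibroblast and adrenergic sums were both higher in all 3 SGC707 libraries, and their part in the results was not tested.

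PROSER1 was the member with the largest difference between the groups. It had 2859, 3294 and 1977 counts with DMSO and 540, 546 and 587 with SGC707. Normalised for sequencing depth with TMM factors (a trimmed mean scaling between libraries), these were 273, 322 and 178 CPM with DMSO and 32.6, 34.3 and 45.7 CPM with SGC707. The groups did not overlap: the lowest DMSO library, C, lay well above the highest SGC707 library, which was also C. The means were 258 ± 73.2 and 37.6 ± 7.13 CPM (SD, n = 3). PROSER1 was thus 6.86-fold lower with SGC707, or -2.78 as a log2 fold change (SE 0.257). Leaving out 1 library in turn gave log2 fold changes from -2.99 to -2.59. Only 2 genes, or 0.0164% of those tested, were lower at an edgeR adjusted p under 0.05, and PROSER1 was picked from them.

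Of the 3 genes beside PROSER1 described here, NHLRC3 alone had enough counts to be tested, and its log2 fold change was positive. NHLRC3, which encodes a protein with NHL repeats, had 15.9, 17.0 and 21.9 CPM with DMSO and 26.2, 24.0 and 32.3 CPM with SGC707. Its SGC707 libraries all lay above its DMSO libraries, as was true of 10.8% of all tested genes. The log2 fold change was 0.59 (95% interval 0.11 to 1.06), and it did not pass the test (edgeR adjusted p = 0.311). On the other side of PROSER1, STOML3, 18800 bp away, had 0 counts in all 6 libraries. A count of 0 leaves room for 0.194 to 0.257 CPM, depending on the library, from counting error only. These limits are scaled by library totals alone, unlike the TMM-normalised values of NHLRC3. FREM2, a basement membrane protein gene 122735 bp away, had between 0 and 4 counts in each library. Neither was tested.

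The 5 genes most like PROSER1 were found by the root mean square difference between log2 CPM profiles over the 6 libraries, each centred on its gene's mean. They were PLBD2 (0.430), NPIPB3 (0.475), MT-ND4L (0.476), TMEM33 (0.503) and SEMA6D (0.519). TMEM33 encodes an endoplasmic reticulum membrane protein, PLBD2 a lysosomal protein, SEMA6D a semaphorin of axon guidance, and MT-ND4L a mitochondrially encoded subunit of complex I. Their log2 fold changes were -1.96 for PLBD2, -1.95 for NPIPB3, -1.92 for MT-ND4L, -2.28 for TMEM33 and -2.18 for SEMA6D, each smaller in size than that of PROSER1. PLBD2 and MT-ND4L resembled PROSER1 also within the DMSO group, with DMSO B highest and DMSO C lowest, whereas TMEM33 was highest in DMSO C. Over all 6 libraries, PROSER1, PLBD2 and MT-ND4L ranked in the order of the library's mitochondrial share. That share was 60.7%, 53.3% and 46.7% in DMSO B, A and C and 37.7%, 25.3% and 24.3% in SGC707 C, B and A. MT-ND4L is itself part of it. NPIPB3, TMEM33 and SEMA6D did not follow this order. The share differed between the groups, so it cannot be told apart from the treatment. NPIPB3 belongs to a family of near-identical copies, and MT-ND4L overlaps MT-ND4, so their counts are uncertain. The likeness includes the difference between groups for which PROSER1 was chosen.

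**Figure D1:**
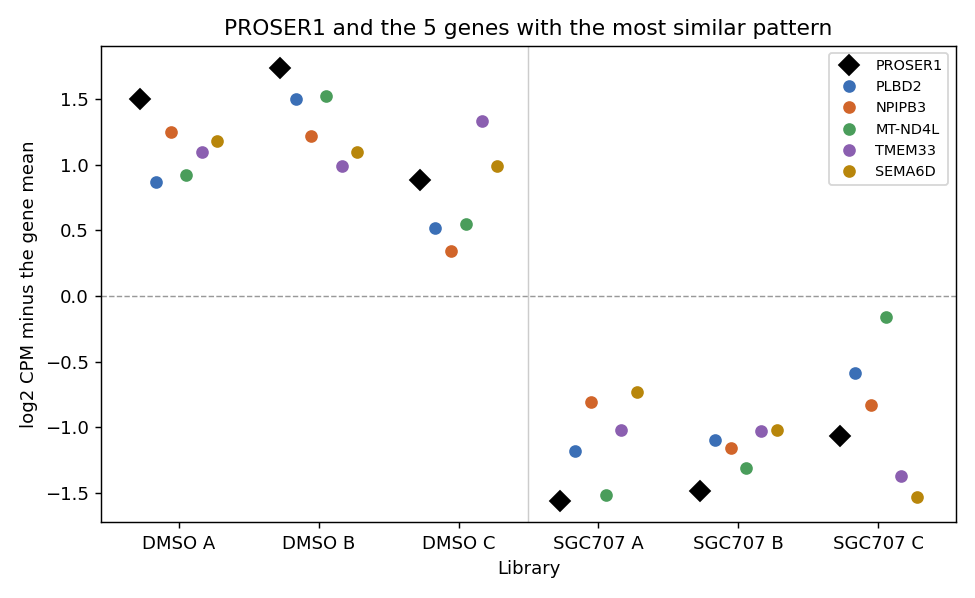
Log2 CPM minus the gene's mean over the 6 libraries (y axis) in each library (x axis) for PROSER1 (diamonds) and the 5 genes with the smallest root mean square difference from it (circles, offset sideways so that they can be told apart). PROSER1 ran from 1.74 in DMSO B to -1.56 in SGC707 A, and every gene shown was above its mean in the 3 DMSO libraries and below it in the 3 SGC707 libraries.

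Of the 3 TET genes, TET1 and TET2 stood lower in SGC707 A and B and TET3 varied mainly through 1 DMSO library. TET1, which has a CXXC domain that binds unmethylated CpG sites, had 34.2, 31.7 and 31.2 CPM with DMSO. With SGC707 it had 17.4, 20.9 and 36.6 CPM, so that A and B lay below all DMSO libraries and C above them. The means were 32.4 ± 1.65 and 25.0 ± 10.2 CPM (SD, n = 3), and the log2 fold change was -0.38 (edgeR 95% interval -1.02 to 0.27, adjusted p = 0.6). TET1 did not pass the test on 6 libraries. Without SGC707 C it did, at -0.76 (edgeR adjusted p = 0.0304), as did 9.26% of all genes in that fit. Its log2 fold change was closer to 0 without SGC707 A (-0.17, edgeR adjusted p = 0.84) and without SGC707 B (-0.26, edgeR adjusted p = 0.855).

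TET2, which lacks the CXXC domain of the other TET genes, had 65.8, 71.7 and 61.8 CPM with DMSO and 42.7, 44.7 and 62.1 CPM with SGC707. SGC707 C lay within the DMSO range, and A and B lay below it. The log2 fold change was -0.41 (95% interval -0.84 to 0.01, edgeR adjusted p = 0.406). Without SGC707 C it was -0.61 (edgeR adjusted p = 0.0307), in a fit where 9.26% of all genes passed. It did not pass without SGC707 A (-0.31, edgeR adjusted p = 0.611) or without SGC707 B (-0.34, edgeR adjusted p = 0.75).

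TET3, the form that oxidises the paternal genome in the zygote, had 797, 175 and 853 counts with DMSO, or 76.0, 17.1 and 76.8 CPM. The SGC707 libraries had 66.5, 72.4 and 77.8 CPM, so that 5 libraries lay close together and DMSO B far below. The log2 fold change, 0.35 (95% interval -0.74 to 1.45, edgeR adjusted p = 0.790), rested on that library, and was -0.08 without DMSO B (edgeR adjusted p = 0.972). Among 10192 genes with a mean of at least 5 CPM, 24 were likewise at least 3-fold lower in DMSO B than in both other DMSO libraries, which themselves lay within 1.5-fold. The same count was 25 for DMSO A, 32 for DMSO C, 27 for SGC707 A, 14 for SGC707 B and 234 for SGC707 C.

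OGT, the single human gene for the nuclear and cytosolic transferase, differed by less than the spread between replicates. It had 90.5, 90.5 and 97.2 CPM with DMSO and 86.8, 110.1 and 104.3 CPM with SGC707, and the groups overlapped. The log2 fold change was 0.11 (95% interval -0.22 to 0.45, edgeR adjusted p = 0.777).

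Among the subunits of the KMT2C/D complexes, KDM6A and KMT2C overlapped between the groups, and KMT2D, PAXIP1 and NCOA6 did not. KDM6A had 42.6, 43.1 and 38.9 CPM with DMSO and 31.5, 32.8 and 40.3 CPM with SGC707, and the log2 fold change was -0.25 (edgeR 95% interval -0.63 to 0.12, adjusted p = 0.548). KMT2C, one of both alternative catalytic subunits, had 183, 205 and 177 CPM with DMSO and 138, 149 and 190 CPM with SGC707. Its log2 fold change was -0.25 (95% interval -0.62 to 0.13, edgeR adjusted p = 0.559). In both genes SGC707 C lay within the DMSO range while SGC707 A and B lay below it, as in TET2. The value of KMT2C ran from -0.40 without SGC707 C to -0.15 without SGC707 A. Parts of KMT2C are duplicated elsewhere in the genome, and a pseudogene on the opposite strand, FABP5P3, covers 1.18% of its exonic bases, so its counts are uncertain.

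KMT2D, the other catalytic subunit, had 167, 174 and 118 CPM with DMSO and 108, 104 and 71.8 CPM with SGC707. All SGC707 libraries lay below all DMSO libraries, with C the lowest in each group. The log2 fold change was -0.70 (95% interval -1.20 to -0.19), and it did not pass over all genes (edgeR adjusted p = 0.283). Within the SGC707 group, library C had the highest level of KMT2C and the lowest of KMT2D.

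PAXIP1 (also called PTIP), a subunit with BRCT domains found in KMT2C/D complexes, had 67.0, 66.5 and 56.2 CPM with DMSO and 43.5, 47.9 and 37.5 CPM with SGC707. The groups did not overlap, and the log2 fold change was -0.56 (95% interval -0.93 to -0.18, edgeR adjusted p = 0.266). An antisense gene, PAXIP1-AS2, covers 6.06% of its exonic bases, and whether the counting used strand is not stated in these sources.

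NCOA6, a nuclear receptor coactivator in the same complexes, had the largest difference of the 9 partners. It had 222, 248 and 179 CPM with DMSO and 100.4, 103 and 133 CPM with SGC707. Every SGC707 library lay below every DMSO library. Alone of the 9 partners, NCOA6 ranked over the 6 libraries in the order of their mitochondrial share, as PROSER1 did. The means were 216 ± 34.7 and 112 ± 18.0 CPM (SD, n = 3), 1.93-fold lower, or -0.95 as a log2 fold change (SE 0.181, 95% interval -1.37 to -0.53). It did not pass over all genes in edgeR (adjusted p = 0.171). It passed in DESeq2 (-0.96, adjusted p = 0.00173). After a correction for GC content and length it passed in edgeR (-0.92, adjusted p = 0.0476), as did 0.509% of genes in that fit. Without SGC707 C it passed in edgeR (-1.09, adjusted p = 0.0272), as did 9.26% of genes in that fit. Its adjusted p ranged up to 0.666, without DMSO B.

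**Figure D2:**
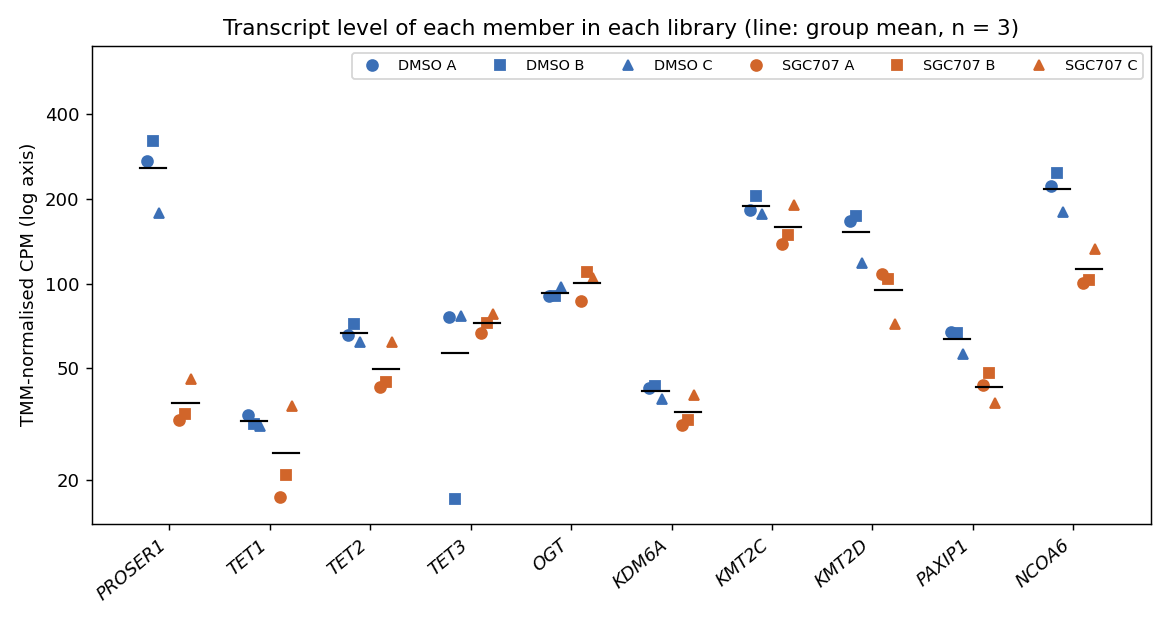
TMM-normalised CPM on a log axis (y axis) of the 10 members (x axis) in the 3 DMSO libraries (blue) and the 3 SGC707 libraries (orange), with a line at each group mean. PROSER1, KMT2D, PAXIP1 and NCOA6 have all orange points below all blue ones, TET3 has DMSO B at 17.1 CPM, and TET1 has SGC707 C at 36.6 CPM.

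Counted together, 0 of the 9 partners passed at an edgeR adjusted p under 0.05, where 0.0246% of all tested genes did. DESeq2 called 1 partner, NCOA6, and 1.89% of its 15272 genes. These were not filtered for low counts as the 12196 genes tested in edgeR were, so the shares are not directly comparable. At an unadjusted edgeR p under 0.05 there were 3 partners, KMT2D, PAXIP1 and NCOA6, all lower, and 7.13% of all tested genes were lower at that level. The same 3 had groups that did not overlap with SGC707 below, as had 9.78% of all tested genes. A count of 3 in 9 lies above both shares, but genes vary together between libraries. The 9 were also listed with earlier results of these data known, and no test of them as a group was made. The median log2 fold change of the 9 was -0.38, against 0.02 over all tested genes, and it was -0.18 without SGC707 A and -0.26 without SGC707 B.

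Negative log2 fold changes were found in 7 of the 9 partners and in 47.2% of all tested genes with TMM scaling, whereas scaling by library totals alone turned 6 of the 7 positive and left NCOA6 (-0.27) and PROSER1 (-2.09) negative. Under that scaling the median over all tested genes was 0.69. The 6 genes that turned (TET1 and TET2 at 0.24, KDM6A and KMT2C at 0.41, KMT2D at 0.03 and PAXIP1 at 0.14) stood below that median, and OGT (0.77) and TET3 (0.93) above it. OGT passed under that scaling (edgeR adjusted p = 0.0455), as did 21.4% of all tested genes.

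**Figure D3:**
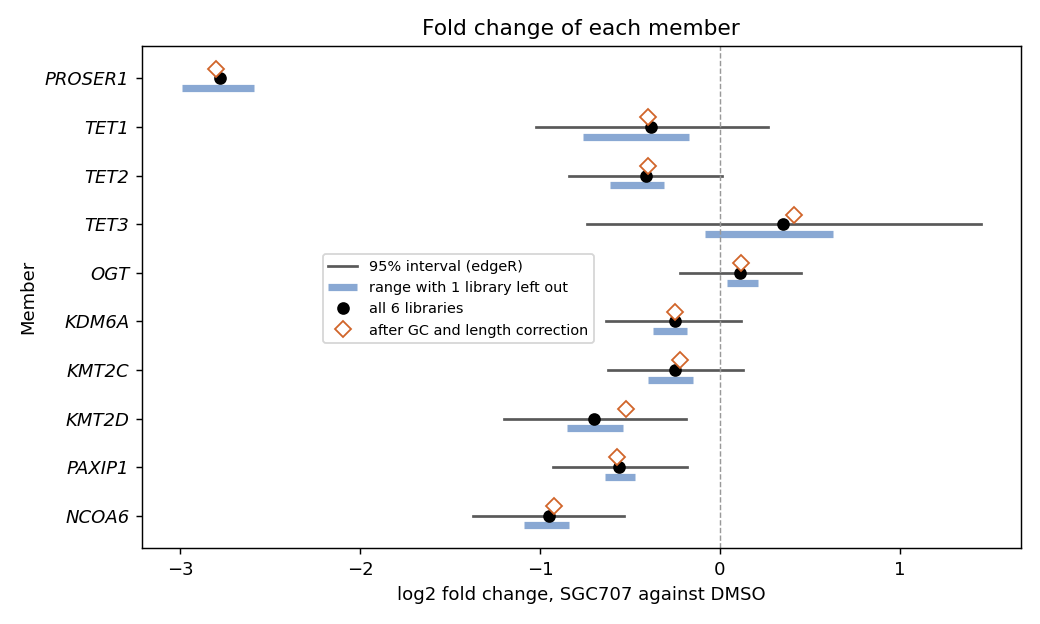
Log2 fold change of SGC707 against DMSO (x axis) for each member (y axis) from all 6 libraries (black points) with the 95% interval from edgeR (grey lines, not drawn for PROSER1, which was chosen on this value), the range with 1 library left out (blue bars) and the value after the GC and length correction (open diamonds). The intervals of KMT2D, PAXIP1 and NCOA6 lie below 0, those of the other 6 partners include 0, and the range of TET3 runs from -0.08 to 0.63.

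The place of SGC707 C among the SGC707 libraries fell, with exceptions, as the GC content of the member's transcript rose. In log2 CPM, SGC707 C minus the mean of SGC707 A and B was 0.93 for TET1 (GC content 41.0%), 0.51 for TET2 (43.0%), 0.33 for KDM6A (43.5%) and 0.41 for KMT2C (45.0%). It was 0.45 for PROSER1 (46.0%) and 0.38 for NCOA6 (47.8%), then -0.28 for PAXIP1 (48.5%), 0.16 for TET3 (52.3%) and -0.56 for KMT2D (59.1%). The order was not strict. OGT had 0.09 with a GC content of 42.3%, KDM6A stood below KMT2C and PROSER1, and PAXIP1 below TET3. After a correction of each library for GC content and transcript length, the difference was 0.50 for TET1, 0.16 for TET2, 0.00 for KDM6A and 0.16 for KMT2C and for KMT2D. It was 0.25 for PROSER1 and 0.26 for NCOA6, and it lay farther from 0 than before for OGT (-0.28), TET3 (0.34) and PAXIP1 (-0.35). The correction was fitted on all nuclear genes with enough counts, these members among them.

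The corrected values changed the spread between SGC707 libraries more than the fold changes. The SD of log2 CPM over the 3 SGC707 libraries went from 0.554 to 0.299 for TET1, from 0.294 to 0.0941 for TET2, from 0.190 to 0.0103 for KDM6A, from 0.240 to 0.0934 for KMT2C and from 0.324 to 0.0933 for KMT2D. It rose from 0.177 to 0.210 for PAXIP1, from 0.113 to 0.203 for TET3 and from 0.180 to 0.206 for OGT. Corrected log2 fold changes were -0.40 for TET1, -0.40 for TET2, -0.25 for KDM6A, -0.22 for KMT2C, -0.52 for KMT2D and -2.80 for PROSER1. With the correction 6 partners were lower at an unadjusted edgeR p under 0.05 (KMT2D, PAXIP1, NCOA6, TET1, TET2 and KDM6A), against 12.8% of all genes in that fit. Without SGC707 C there were 7, with KMT2C added, against 15.5%, and 3 of them (TET1, TET2 and NCOA6) passed at an edgeR adjusted p under 0.05, where 5.53% of all genes in that fit were lower.

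**Figure D4:**
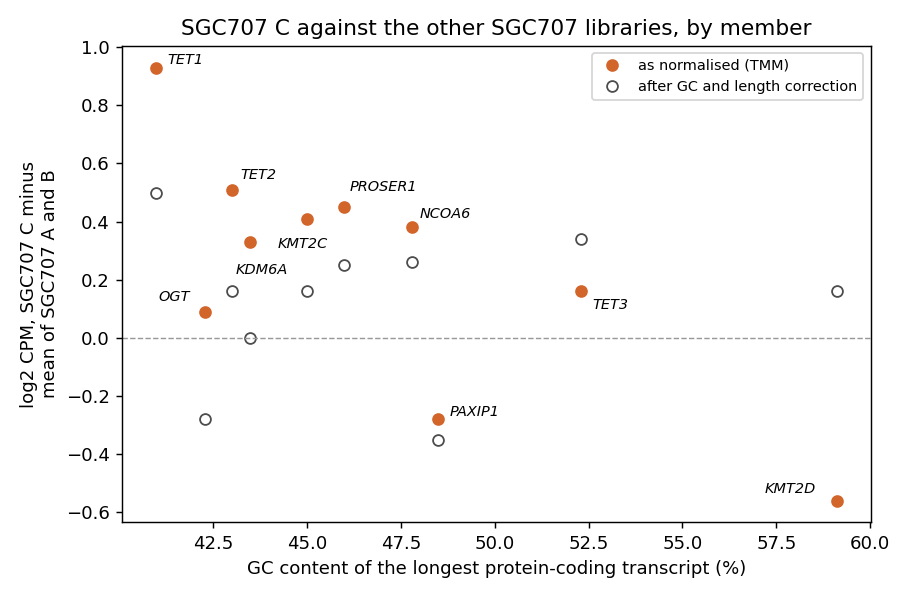
Log2 CPM of SGC707 C minus the mean of SGC707 A and B (y axis) against the GC content of the longest protein-coding transcript in percent (x axis) for the 10 members, as normalised (filled) and after the GC and length correction (open). Filled points run from 0.93 for TET1, the member with the lowest GC content, to -0.56 for KMT2D, the one with the highest.

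Levels of different members were compared per kilobase of the longest protein-coding transcript, in normalised CPM per kb. With DMSO the order was PROSER1 (49.8 ± 14.2), NCOA6 (23.2 ± 3.73), OGT (17.0 ± 0.710), PAXIP1 (16.5 ± 1.59), KMT2C (11.2 ± 0.854), KMT2D (7.89 ± 1.56), KDM6A (7.01 ± 0.390), TET2 (6.53 ± 0.490), TET3 (4.97 ± 3.01) and TET1 (3.48 ± 0.178; SD, n = 3). Of the 9 pairs of neighbours in that order, PROSER1 and NCOA6, NCOA6 and OGT, PAXIP1 and KMT2C, and KMT2C and KMT2D had no overlap between libraries, and the other 5 pairs overlapped. With SGC707 OGT came first (18.4 ± 2.22), followed by NCOA6 (12 ± 1.93), PAXIP1 (11.2 ± 1.36) and KMT2C (9.41 ± 1.62), and PROSER1 was the fifth (7.27 ± 1.38). TET3 (6.34 ± 0.494), KDM6A (5.88 ± 0.804), TET2 (4.90 ± 1.05), KMT2D (4.86 ± 1.02) and TET1 (2.69 ± 1.10) came after it, and only OGT and NCOA6 had no overlap as neighbours. The order depends on the length used. Over all annotated exonic bases PROSER1 again held place 1 with DMSO and 5 with SGC707, while PAXIP1, with 9643 exonic bases against a transcript of 3827, went from place 4 to 6 and from place 3 to 8.

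The related genes were grouped in 6 lists of 52 genes, all of which were tested. None passed at an edgeR adjusted p under 0.05, where 0.0246% of all tested genes did. DESeq2 called 4 (KDM6B, EP300, SETD1A and MEN1, all lower) and 1.89% of its 15272 genes, which were not filtered for low counts. At an unadjusted edgeR p under 0.05, 3 were higher and 10 lower, against 5.62% and 7.13% of all tested genes. These 13 stood beside 12.8% of all tested genes in either direction. The count was 8 without DMSO A, beside 6.2% of all genes in that fit, 8 without DMSO B, beside 5.66%, and 21 without SGC707 C, beside 30%, so the share of all genes moved with it. Without SGC707 C, 7 list genes passed at an edgeR adjusted p under 0.05 where 9.26% of all genes in that fit did. The other listed subunits of the KMT2C/D complexes were PAGR1, WDR5, RBBP5, ASH2L and DPY30, most of which all COMPASS-type methyltransferases share. Their log2 fold changes were positive in 5 of 5 genes, with a median of 0.23 and 0 at an unadjusted edgeR p under 0.05. WDR5, the WD-repeat scaffold, had 34.1, 38.1 and 42.7 CPM with DMSO and 51.2, 52.7 and 43.1 CPM with SGC707, which do not overlap (log2 fold change 0.35, edgeR adjusted p = 0.42). With TMM scaling the 5 positive values of this list stood beside negative ones in KDM6A, KMT2C, KMT2D, PAXIP1 and NCOA6. With library totals alone only NCOA6 of these stayed negative (-0.27). The difference between both sets was not tested.

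In the other COMPASS complexes, 9 of 10 genes had negative log2 fold changes (3 with library totals alone), with a median of -0.37. At an unadjusted edgeR p under 0.05, 4 were lower and 1 higher. Over all tested genes, the background for each of the 6 lists, 47.2% were negative (5.26% with library totals alone). At that unadjusted p, 7.13% of all tested genes were lower and 5.62% higher. The catalytic subunit gene SETD1A had 96.3, 91.8 and 60.9 CPM with DMSO and 47.1, 47.2 and 35.9 CPM with SGC707, which do not overlap (log2 fold change -0.93, edgeR adjusted p = 0.202). MEN1 (-0.82), which encodes menin, and HCFC1 (-0.71), a host cell factor that OGT both glycosylates and cleaves, had edgeR adjusted p of 0.262 and 0.275. DESeq2 called SETD1A (adjusted p = 0.01) and MEN1 (adjusted p = 0.0439). WDR82 (0.45), a subunit of the SETD1 complexes, was the gene with a positive value (edgeR adjusted p = 0.291).

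The O-GlcNAc list had 6 of 8 genes with positive log2 fold changes (8 with library totals alone), a median of 0.23 (0.13 without SGC707 C) and 0 genes at an unadjusted p under 0.05. OGA, whose product removes the sugar that OGT adds, had 69.9, 72.5 and 79.4 CPM with DMSO and 93.2, 81.6 and 113 CPM with SGC707. Its groups did not overlap (log2 fold change 0.37, edgeR adjusted p = 0.396). The DNA methylation and base excision list had 4 genes with positive and 6 with negative log2 fold changes (10 and 0 with library totals alone) and a median of -0.04, which was 0.11 without SGC707 A and 0.03 without DMSO A. TDG, the glycosylase that removes the oxidised bases made by TET enzymes, had 22.2, 16.8 and 21.6 CPM with DMSO and 24.2, 28.1 and 32.0 CPM with SGC707 (log2 fold change 0.47, edgeR adjusted p = 0.373).

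In the list on lysine 27 of histone H3, 5 of 8 genes had negative log2 fold changes (2 with library totals alone), with a median of -0.21 (-0.09 without SGC707 A and -0.40 without SGC707 C), and 3 were lower and 1 higher at an unadjusted edgeR p under 0.05. KDM6B, the paralog of KDM6A, had 93.0, 152 and 63.6 CPM with DMSO and 41.3, 40.8 and 23.3 CPM with SGC707. No SGC707 library reached the lowest DMSO library, and its log2 fold change was -1.55, short of the threshold in edgeR (adjusted p = 0.202) and past it in DESeq2 (adjusted p = 0.00105). The acetyltransferase genes EP300 (-0.98, edgeR adjusted p = 0.202) and CREBBP (-0.55, edgeR adjusted p = 0.263), whose products act at the same enhancers as KMT2C and KMT2D, also had groups that did not overlap, and DESeq2 called EP300 (adjusted p = 0.00672). EED, a subunit of the opposing methyltransferase complex PRC2, had a positive value (0.73, edgeR adjusted p = 0.264). In the BAP1 and SIN3 list 8 of 11 genes had negative values (1 with library totals alone), with a median of -0.19 (-0.06 after the GC and length correction and -0.07 without SGC707 C), and SIN3A (-0.63), MBD5 (-0.65) and MBD6 (-0.79) had edgeR adjusted p from 0.277 to 0.356. With library totals alone HCFC1 (0.01), CREBBP (0.14), SIN3A (0.04) and MBD5 (0.00) were no longer negative.

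**Figure D5:**
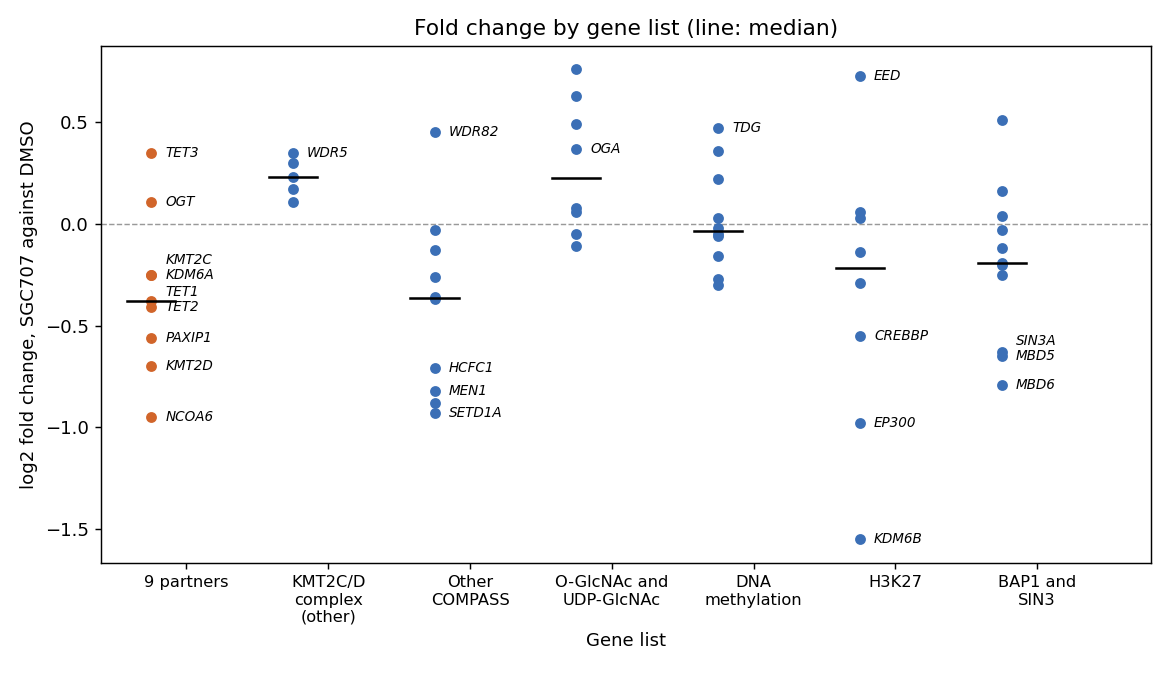
Log2 fold change of SGC707 against DMSO (y axis) for the 9 partners (orange) and the tested genes of the 6 related lists (blue), 1 point a gene, with a line at each median (x axis: list) and the genes named in the text labelled. Medians are -0.38 for the partners, 0.23 for the other KMT2C/D complex subunits, -0.37 for other COMPASS complexes, 0.23 for O-GlcNAc genes, -0.04 for DNA methylation, -0.21 for histone H3 lysine 27 and -0.19 for BAP1 and SIN3, all with TMM scaling; with library totals alone all 7 medians are positive, where the median of all tested genes is 0.69.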

How the data were processed

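The authors deposited 1 table of unscaled counts, in whole numbers, with a row for each gene symbol. HISAT2, StringTie and GRCh38 are named per the submitters' processing notes. Neither their versions nor the annotation, the strand setting or the handling of shared reads is stated there. Gene positions, transcript lengths and GC content came from GENCODE release 29 (GRCh38), in which 19294 symbols matched directly, 296 through a synonym and 20 not at all, and promoter sequence from RefSeq (GRCh38.p14), which held 8 of the 10 members by symbol.

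The test of all genes used the quasi-likelihood fit of edgeR 4.0.16 under R 4.3.3 (filterByExpr, TMM, robust glmQLFit, glmQLFTest, no covariate). The Benjamini-Hochberg adjustment ran over the 12196 tested genes, with a threshold of 0.05. Log2 CPM used a prior count of 2. The fit was tested on simulated data. Libraries of the same group differed by more than sampling noise (lowest chi-square per degree of freedom 12.4). Limits for 0 counts (3 counts, scaled by library totals alone) cover counting error only.

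The members, lists and alternatives were chosen with earlier results of these data known. Named list genes are up to 4 per list with an unadjusted p under 0.05, or else the 1 with the smallest p, and the genes next to PROSER1 within 500 kb. The genes most like PROSER1 were sought among genes with 5 CPM or more on average, leaving out clone-based symbols. Alternatives were scaling by RLE or by library totals alone, no filter, DESeq2 1.42.0, each library left out, the replicate letter as a block, no mitochondrial genes, and a lowess correction (span 0.3) for GC content and length fitted on nuclear genes with 20 or more counts on average. Figures were drawn with matplotlib 3.10.9.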

Additional observations from a re-analysis of the deposited data

How the results depend on the processing

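RLE size factors, no filter and the fit without mitochondrial genes kept the directions and calls of all 10 members. Under library totals alone PROSER1 stood at -2.09, and 2 members had negative log2 fold changes, where 5.26% of all tested genes did. Past the threshold were 1 partner and 16 list genes, where 21.4% of all tested genes passed. TET1 (0.24), TET2 (0.24), KDM6A (0.41), KMT2C (0.41), KMT2D (0.03), PAXIP1 (0.14), HCFC1 (0.01), CREBBP (0.14), SIN3A (0.04) and MBD5 (0.00) turned from negative. That scaling counts mitochondrial transcripts, whose share differed between the groups, in the totals. DESeq2 called 1 partner and 4 list genes, beside 1.89% of its 15272 genes, which were not filtered for low counts. The GC and length correction called 1 partner and 0 list genes, beside 0.509% of all genes in that fit. With 1 library left out, 0 to 3 partners and 0 to 7 list genes passed, the highest without SGC707 C, where 9.26% of all genes passed. TET3 then ran from -0.08 (without DMSO B) to 0.63 (without DMSO C). The cause of these changes was not tested.

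Replicate letters are shared by both groups, but same-letter libraries did not deviate together (correlations of 0.0795, -0.0228 and 0.0998 for A, B and C), and DMSO A and DMSO B correlated best with another letter. With the replicate block 0 partners passed, and the number of all genes past the threshold went from 3 to 0. PROSER1 stood at -2.75 with the replicate block. In proportion to the count, counting error is largest for members with few counts in a library, such as TET3 in DMSO B (175). The cause of the low level of TET3 in that library (17.1 CPM, against 76.0 and 76.8 CPM in DMSO A and C) was not tested.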

Other observations

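Grouping the 9 partners and 52 list genes by transcript length, a grouping chosen after their values were seen, gave negative log2 fold changes in 7 of 11 genes under 3 kb, 14 of 27 from 3 to 6 kb and 16 of 23 over 6 kb, with medians of -0.05, -0.02 and -0.38. Over all tested nuclear genes the shares were 42.1%, 50.4% and 51.0%, with medians of 0.07, 0.00 and -0.01. After the GC and length correction the 23 genes over 6 kb had a median of -0.40, against 0.01 over all nuclear genes of that class.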
